A study of Mus musculus with 6 samples.

Results

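The regions described here are the narrowest isolated binding sites of EZH2 in mouse embryonic fibroblasts with wild-type EED, at which no trimethylated lysine 27 of histone H3 (H3K27me3) was called in the same cells carrying EED R302S. A peak belonged to this class when it was 1400 bp wide or less, had no other EZH2 peak within 5000 bp and shared no base with a peak of the R302S H3K27me3 list. Of the 3449 EZH2 peaks, 730 met all 3 conditions (21.2%, 95% Wilson interval 19.8% to 22.6%). They are called narrow unmarked sites below, where unmarked means without a peak of the R302S H3K27me3 list. Whether these sites carry H3K27me3 in the cells with wild-type EED, or EZH2 in R302S cells, was not examined here. They made up 84.6% of the 863 EZH2 peaks of 1400 bp or less and 29.3% of the 2492 EZH2 peaks without H3K27me3, but held only 0.798 of the 11.9 Mb covered by EZH2 peaks (6.70%).

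EZH2 is the methyltransferase subunit of Polycomb repressive complex 2 (PRC2), which places methyl groups on lysine 27 of histone H3. EED is the subunit that recognises H3K27me3 in an aromatic cage, and this contact stimulates EZH2 and helps methylation to spread from the places where PRC2 is first recruited. In differentiated cells PRC2 is known for holding developmental genes silent, often at CpG-rich promoters, where broad domains of EZH2 and H3K27me3 form. Narrow isolated peaks are the opposite end of the EZH2 list from those domains.

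The study used mouse embryonic fibroblasts in which floxed EED had been removed with Cre and 1 knockout clone chosen, so every line descended from that clone and lacked its own EED. A lentivirus then restored EED in its wild-type form or with the change R302S or Y365A, and chromatin cut with micrococcal nuclease was precipitated with an antibody against EZH2 or H3K27me3. This gave 6 samples in 6 groups of 1 library. The 2 lists used here were EZH2 from the wild-type rescue and H3K27me3 from the R302S rescue. Not analysed here were the remaining 4. Each list gives positions without a height, score or gene, so fibroblast markers could not be examined, depth is unknown and a weak site cannot be told from a narrow one. Antibody and EED form changed together between the lists and cannot be told apart. Each group being 1 library, conditions were not tested against each other. The intervals given below cover only the counting error over peaks of a library, and peaks near each other are not independent.

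The sites were chosen by their width, by the gap of 5000 bp and by the lack of H3K27me3, and those values are given as a description. Widths come in steps of 200 bp, and the smallest EZH2 peak was 800 bp. The 730 sites were spread almost evenly over the 4 possible widths, with 188 of 800 bp, 189 of 1000 bp, 178 of 1200 bp and 175 of 1400 bp. Just outside the width limit lay 145 solitary unmarked peaks of 1600 bp. At the gap limit, 5 narrow unmarked peaks had a neighbour at exactly 5000 bp and stayed out, while 5 had one at 5200 bp and were in. Over the whole EZH2 list 27.7% of peaks overlapped H3K27me3, and among the 770 narrow solitary peaks 40 did (5.19%, 3.84% to 7.0%). By single width this share was 2.59% of solitary peaks of 800 bp, 4.55% at 1000 bp, 8.25% at 1200 bp and 5.41% at 1400 bp. It was 7.64% at 1600 bp and 26.0% at 2600 bp, so the width limit of 1400 bp marked no step in it.

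**Figure D1:**
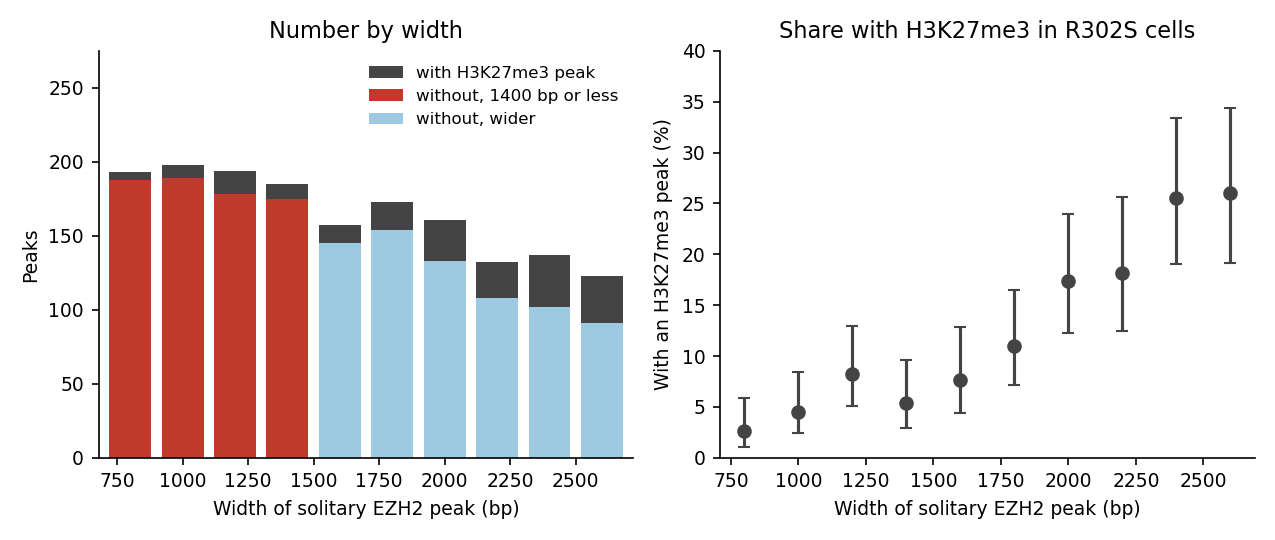
Solitary EZH2 peaks by width in steps of 200 bp (x axis, bp): left, the number of peaks without H3K27me3 (red up to 1400 bp, blue above) and with it (dark); right, the percentage with an H3K27me3 peak, with 95% Wilson intervals. The 4 red bars are the 730 narrow unmarked sites and run from 175 to 189 peaks, and the share with H3K27me3 climbs from 2.59% at 800 bp to 26.0% at 2600 bp with no step at 1400 bp.

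The first question was how isolated these sites were beyond the 5 kb that the rule demanded. The gap to the nearest other EZH2 peak had a median of 65.9 kb (50.8 to 76.2 kb, order-statistic interval), with quartiles of 17.7 and 324.8 kb and a range from 5.2 to 17017.2 kb. More often than not a site still had company within 100 kb: 421 of the 730 (57.7%, 54.1% to 61.2%) had another EZH2 peak there, against 63.1% of all EZH2 peaks, which include the close neighbours that the rule removed. On the other side 75 sites (10.3%, 8.28% to 12.7%) had no EZH2 peak within 1 Mb in either direction, against 7.02% of all EZH2 peaks and 8.41% of all solitary ones (7.45% to 9.49%). The farther of the flanking gaps had a median of 476.4 kb and was 4.01 times the nearer one in the median (722 sites with a peak on both sides), against 4.21 times for all EZH2 peaks and 3.86 times for solitary ones. Within 500 kb of the centre lay a median of 3 other EZH2 peaks (quartiles 1 and 8) and 33 at most. In 130 sites there was none (17.8%, 15.2% to 20.7%), against 14.3% of all EZH2 peaks and 17.1% of solitary ones.

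Among the narrow unmarked sites the different widths could not be separated by their median gap to another EZH2 peak. The median gap to the nearest EZH2 peak was 79.5 kb for the 188 sites of 800 bp, 65.2 kb at 1000 bp, 65.6 kb at 1200 bp and 50.6 kb at 1400 bp. Their intervals overlapped, the outermost being 54.4 to 113.4 kb at 800 bp and 30.6 to 70.2 kb at 1400 bp. The 1102 solitary unmarked peaks of 1600 to 4200 bp had a median of 61.1 kb (51.0 to 75.8 kb), inside the interval of the narrow sites. The 216 solitary unmarked peaks of 4400 bp or more, the widest class of the list, sat closer to others at 18.0 kb (14.2 to 21.4 kb), and 80.6% of them had another EZH2 peak within 100 kb. Neither interval of these wide peaks (74.8% to 85.3% for the share) met that of the narrow sites. By other distances the narrow widths did differ at short range. Within 50 kb, 12.2% of 800 bp sites (8.29% to 17.7%) had an EZH2 peak of 4400 bp or more, against 25.1% at 1400 bp (19.3% to 32.1%). For H3K27me3 the shares were 7.98% (4.89% to 12.7%) and 21.7% (16.2% to 28.4%). Within 200 kb the intervals overlapped for both. The distance of 50 kb was picked after the values were seen.

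The 40 narrow solitary peaks that did carry H3K27me3 in R302S cells were the more isolated ones. Their median gap to another EZH2 peak was 399.7 kb (144.8 to 645.4 kb), and 9 of them (22.5%, 12.3% to 37.5%) had one within 100 kb, against 421 of the 730 without the mark. The order was the same at other widths: solitary peaks of 1600 to 4200 bp had a median gap of 167.8 kb with H3K27me3 and 61.1 kb without, and those of 4400 bp or more 78.2 kb with and 18.0 kb without. EZH2 peaks were crowded on some chromosomes, so the comparison was repeated on the 5 chromosomes with 2 or more EZH2 peaks per Mb (4, 11, 15, 17 and 19) and on the other 15. On the crowded chromosomes the medians were 442.2 kb (49.2 to 1086.0 kb, 13 peaks) with the mark and 30.0 kb (19.6 to 34.4 kb, 258 peaks) without. On the others they were 380.8 kb (127.8 to 747.6 kb, 27 peaks) and 114.6 kb (82.6 to 144.0 kb, 472 peaks), and there the intervals overlapped. The split of chromosomes was chosen after seeing the data, and no test of the difference was made.

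**Figure D2:**
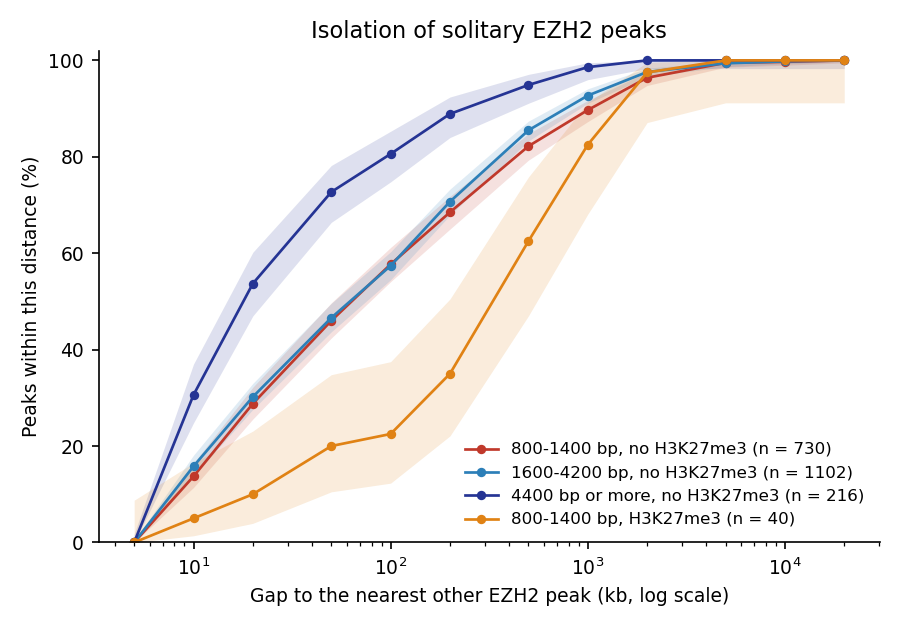
Cumulative share of solitary EZH2 peaks (y axis, %) with another EZH2 peak within the distance on the x axis (kb, log scale), with 95% Wilson bands, for 3 unmarked width classes and for narrow peaks with H3K27me3. At 100 kb the curves stand at 57.7% for the narrow unmarked sites, 57.4% for unmarked peaks of 1600 to 4200 bp, 80.6% for unmarked peaks of 4400 bp or more and 22.5% for narrow peaks with H3K27me3.

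The 5 most isolated narrow unmarked sites show what lay at the far end. The first, on chromosome 9 (3531601 to 3532600), was the first EZH2 peak of its chromosome, with the next 17017.2 kb away, yet an H3K27me3 peak that met no EZH2 peak lay 493.4 kb off. On chromosome 1 (107676801 to 107677800) a site of 1000 bp had gaps of 12093.6 and 12845.8 kb on its sides. On chromosome 6 (135147601 to 135148800) the gaps were 8038.0 and 13242.6 kb, and the nearest neighbour was a wide EZH2 peak of 13.8 kb with H3K27me3. The others were on X (55283801 to 55285000, 6248.6 kb from the nearest) and on chromosome 12 (47918801 to 47919600, 4773.0 kb).

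The next question was how far the narrow unmarked sites lay from wide EZH2 peaks, taken as the 819 of 4400 bp or more. The median gap was 485.4 kb (392.8 to 557.4 kb, quartiles 85.7 and 2180.0 kb). A wide peak lay within 100 kb of 199 sites (27.3%, 24.2% to 30.6%), against 35.5% of all EZH2 peaks and 27.4% of all solitary ones. Within 20 kb it was 75 sites (10.3%), against 18.3% and 11.0%. All EZH2 peaks include the close neighbours that the rule removed, and beside solitary peaks the sites did not stand apart. Unmarked peaks of 1600 to 4200 bp were 361.5 kb away (295.0 to 420.0 kb), which overlaps the interval of the narrow sites, while unmarked peaks of 4400 bp or more were 80.0 kb (44.6 to 120.4 kb) from another of their kind. Narrow peaks with H3K27me3 were 1544.1 kb (658.4 to 2423.6 kb) from a wide peak. The smallest gap was 5.2 kb, 1 step above the limit, and 5 narrow unmarked sites had it. They flanked wide peaks with H3K27me3 on chromosome 4 (120396001 to 120397200, beside a peak of 19.6 kb) and chromosome 14 (56148401 to 56149400, beside 8.6 kb). The remaining 3 flanked wide peaks without it on chromosome 5 (122422601 to 122424000, beside 5.4 kb), chromosome 17 (34866201 to 34867200, beside 6.6 kb) and chromosome 19 (4698201 to 4699400, beside 4.6 kb).

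H3K27me3 of R302S cells came next. The gap from a narrow unmarked site to the nearest H3K27me3 peak had a median of 378.3 kb (321.8 to 433.4 kb), with quartiles of 91.2 and 1071.9 kb and a range from 3.0 to 12995.2 kb. A peak lay within 5 kb of 3 of the 730 sites (0.411%), against 29.7% of all EZH2 peaks, 2.77% of all unmarked ones and 0.726% of unmarked solitary peaks of 1600 to 4200 bp. The rule largely fixed that count, since it removed overlaps with the mark and EZH2 peaks within 5 kb. Within 100 kb 194 did (26.6%, 23.5% to 29.9%). That share was 51.0% of all EZH2 peaks, which include those with the mark on them, and 32.2% of all EZH2 peaks without H3K27me3. Unmarked peaks of 1600 to 4200 bp gave 315.0 kb (285.2 to 377.6 kb) and 25.5%, both overlapping the narrow sites within their intervals. Unmarked peaks of 4400 bp or more were nearer, at 152.5 kb (125.8 to 205.2 kb) and 38.4% (32.2% to 45.1%).

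**Figure D3:**
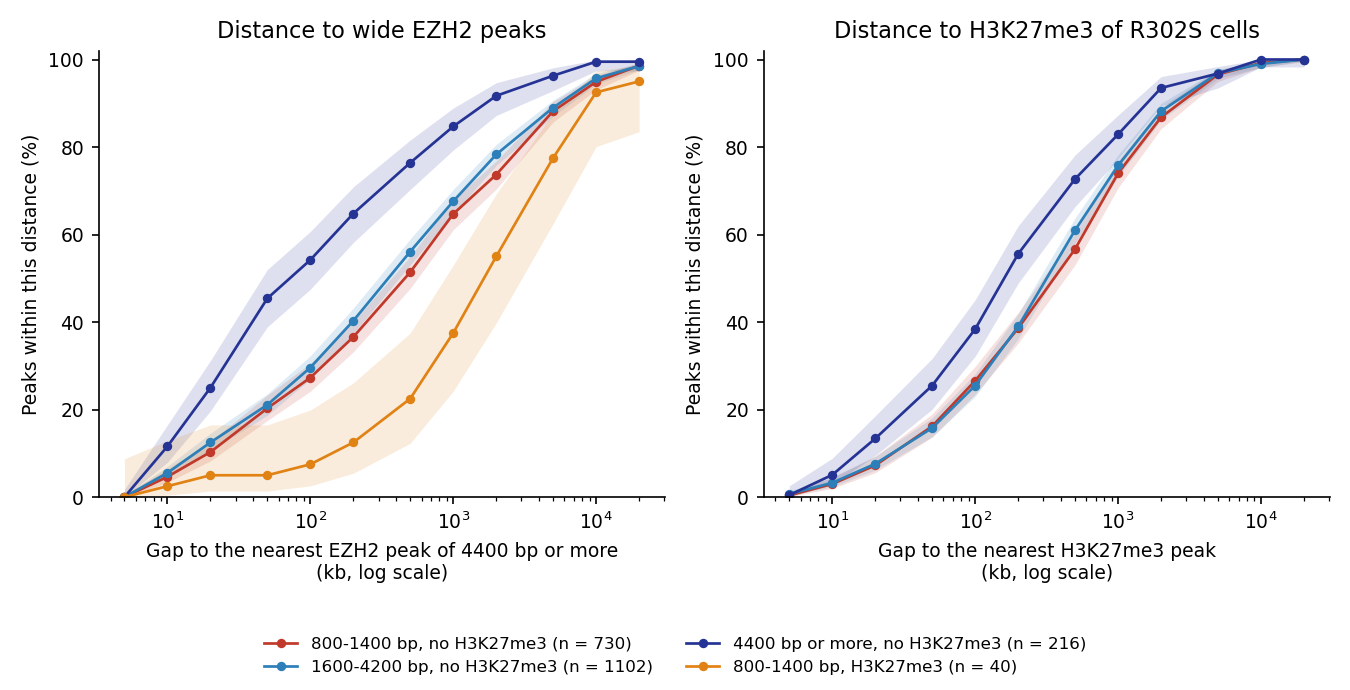
Cumulative share of solitary EZH2 peaks (y axes, %) with an EZH2 peak of 4400 bp or more (left) or an H3K27me3 peak of R302S cells (right) within the distance on the x axis (kb, log scale), with 95% Wilson bands; narrow peaks with H3K27me3 are drawn on the left only. Narrow unmarked sites stand at 27.3% (left) and 26.6% (right) at 100 kb and run beside unmarked peaks of 1600 to 4200 bp, below unmarked peaks of 4400 bp or more.

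The 5 sites nearest to H3K27me3 were on chromosome 1 (75010001 to 75011000, 3.0 kb from an H3K27me3 peak of 18400 bp), chromosome 17 (30034601 to 30035600, 3.0 kb from one of 11600 bp), chromosome 14 (56385201 to 56386400, 3.8 kb from one of 1000 bp), chromosome 15 (100475401 to 100476800, 5.6 kb) and chromosome 5 (122385201 to 122386400, 7.0 kb). In 4 of them that H3K27me3 peak lay on an EZH2 site, the exception being on chromosome 14. At the other end, 4 of the 5 farthest sites were on X, between 11329.0 and 12995.2 kb from the mark. The fifth, on chromosome 5 (4187001 to 4188400), was 10711.6 kb away although 7 other EZH2 peaks lay within 500 kb of it. The nearest H3K27me3 peak lay on an EZH2 site for 629 of the 730 sites (86.2%, 83.5% to 88.5%), against 88.1% (86.8% to 89.3%) over all EZH2 peaks without H3K27me3, 88.7% for unmarked solitary peaks of 1600 to 4200 bp and 90.3% for those of 4400 bp or more. In all, 444 different H3K27me3 peaks were nearest to some site. An H3K27me3 peak was nearer than a wide EZH2 peak for 408 sites (55.9%, 52.3% to 59.5%) and farther for 306, and both gaps were equal for 16. The share with H3K27me3 nearer was 53.4% (50.4% to 56.3%) for unmarked solitary peaks of 1600 to 4200 bp, which overlaps that of the sites. For unmarked solitary peaks of 4400 bp or more it was 33.8% (27.8% to 40.3%). H3K27me3 peaks outnumber wide EZH2 peaks, and these shares were not adjusted for that.

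The distance to H3K27me3 was larger for the more isolated sites, though not at every step. Sites with another EZH2 peak 5 to 10 kb away were a median of 92.8 kb (60.4 to 156.8 kb, 100 sites) from H3K27me3. At gaps of 10 to 20, 20 to 50 and 50 to 100 kb the medians were 112.9, 252.9 and 182.2 kb, with overlapping intervals. The median was 437.8 kb (402.0 to 529.0 kb) for the 179 sites with gaps of 100 to 500 kb, 751.0 kb (699.4 to 905.0 kb) for the 55 with 500 to 1000 kb and 2249.6 kb (1784.2 to 2889.0 kb) for the 75 with gaps over 1000 kb. The nearest H3K27me3 peak mostly lay on an EZH2 site, so both distances often led to the same place and are not independent, although some isolated sites, such as the first of chromosome 9, had the mark far nearer than any EZH2 peak. The solitary unmarked peaks of 1600 to 4200 bp ran from 69.3 kb in the closest class to 2266.9 kb in the farthest, with 161.8, 155.6 and 218.8 kb in the classes from 10 to 100 kb.

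**Figure D4:**
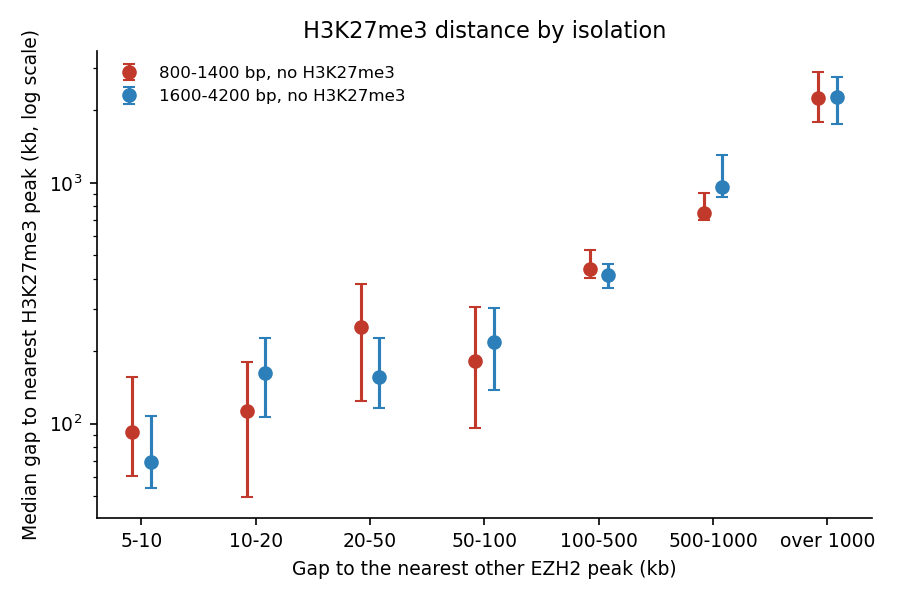
Median gap to the nearest H3K27me3 peak of R302S cells (y axis, kb, log scale) by gap to the nearest other EZH2 peak (x axis, kb), for narrow unmarked sites (red) and unmarked peaks of 1600 to 4200 bp (blue), with 95% order-statistic intervals. From the first class to the last the medians go from 92.8 to 2249.6 kb in red and from 69.3 to 2266.9 kb in blue, not rising at every step below 100 kb, and the intervals of both colours overlap in every class.

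The rule did not name the width or mark of the nearest EZH2 neighbour, but it left out neighbours within 5000 bp, so solitary peaks are the closer comparison. It carried H3K27me3 for 202 of the 730 sites (27.7%, 24.5% to 31.0%), against 27.7% over all solitary EZH2 peaks. For unmarked peaks of 1600 to 4200 bp this share was 25.3% (22.8% to 28.0%), and for unmarked peaks of 4400 bp or more 16.7% (12.3% to 22.2%). The neighbour was itself 1400 bp or narrower for 203 sites (27.8%, 24.7% to 31.2%) and 4400 bp or wider for 158 (21.6%, 18.8% to 24.8%). Over all solitary EZH2 peaks these shares were 26.4% and 22.2%, inside those intervals, and over all EZH2 peaks 24.7% and 24.9%. Its median width was 2400 bp, as for solitary peaks in general. For 181 sites (24.8%) the nearest neighbour was another narrow unmarked site, a class that made up 21.2% of the list. Peaks with another within 5000 bp were the neighbour of 8.49% of sites but 16.6% of the list, which raises the shares of the other classes. Of the 730 sites, 449 were in turn the nearest neighbour of their own nearest EZH2 peak. For 132 of these that peak was another narrow unmarked site, which made 66 pairs.

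Along the chromosomes the sites were mostly single. They made up 21.2% of the EZH2 list, so they would often stand single in a mixed order too. No comparison with such an order was made. Of the 730, 436 (59.7%) had no other narrow unmarked site next to them in the order of EZH2 peaks, 162 stood in pairs, 111 in runs of 3, 16 in runs of 4 and 5 in the 1 run of 5. That run covered 5614.4 kb of chromosome 8 (113925401 to 119539800), with gaps of 281.2 to 2883.0 kb between its sites. The runs of 4 lay on chromosome 4 (34676801 to 41566000), chromosome 9 (81526801 to 91282600), chromosome 14 (33277601 to 35594800) and chromosome 17 (36361201 to 37044800). The run on chromosome 17 was the tightest at 683.6 kb, and the run on chromosome 9 the longest at 9755.8 kb, so that being consecutive did not mean being close.

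The sites were found on all 19 autosomes (714 sites) and X (16 sites). Their density, per Mb between the first and last EZH2 peak, was highest on chromosomes 17 (0.610), 19 (0.578) and 11 (0.517) and lowest on X (0.104), 16 (0.108) and 18 (0.135). It followed the density of all EZH2 peaks, which was 3.59 per Mb on chromosome 17 and 0.326 on X (Spearman rho = 0.95 and Pearson r = 0.98 over 20 chromosomes, and 0.94 and 0.96 without chromosomes 17 and 19). Both densities share the span and the sites are part of the EZH2 list, which pulls them together. As a share of the EZH2 peaks of a chromosome the sites ranged from 17% on chromosome 17 (51 of 300, 13.2% to 21.7%) to 32.0% on X (16 of 50, 20.8% to 45.8%). At the limits used, the interval of every chromosome, wide as most were, held the overall share of 21.2%. With an isolation limit of 10000 bp this did not hold for chromosome 17 (10.7%, 7.66% to 14.7%, against 630 of 3449 overall). The share was somewhat lower where EZH2 peaks were dense (rho = -0.51 and r = -0.60, and -0.39 and -0.53 without chromosomes 17 and 19). The EZH2 count enters both measures. On the densest chromosomes, 17 and 19, narrow peaks of any kind were 59 of 300 and 37 of 178 EZH2 peaks, against 863 of 3449 in the whole list. The sites were 86.4% and 89.2% of those narrow peaks, against 84.6%. The other crowded chromosomes, 4, 11 and 15, went the other way, with 80.2%, 78.2% and 81.5%. Narrow peaks there were 86 of 351, 78 of 297 and 54 of 246 EZH2 peaks. Chromosomes of 1 library are not replicates, and no test was made.

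**Figure D5:**
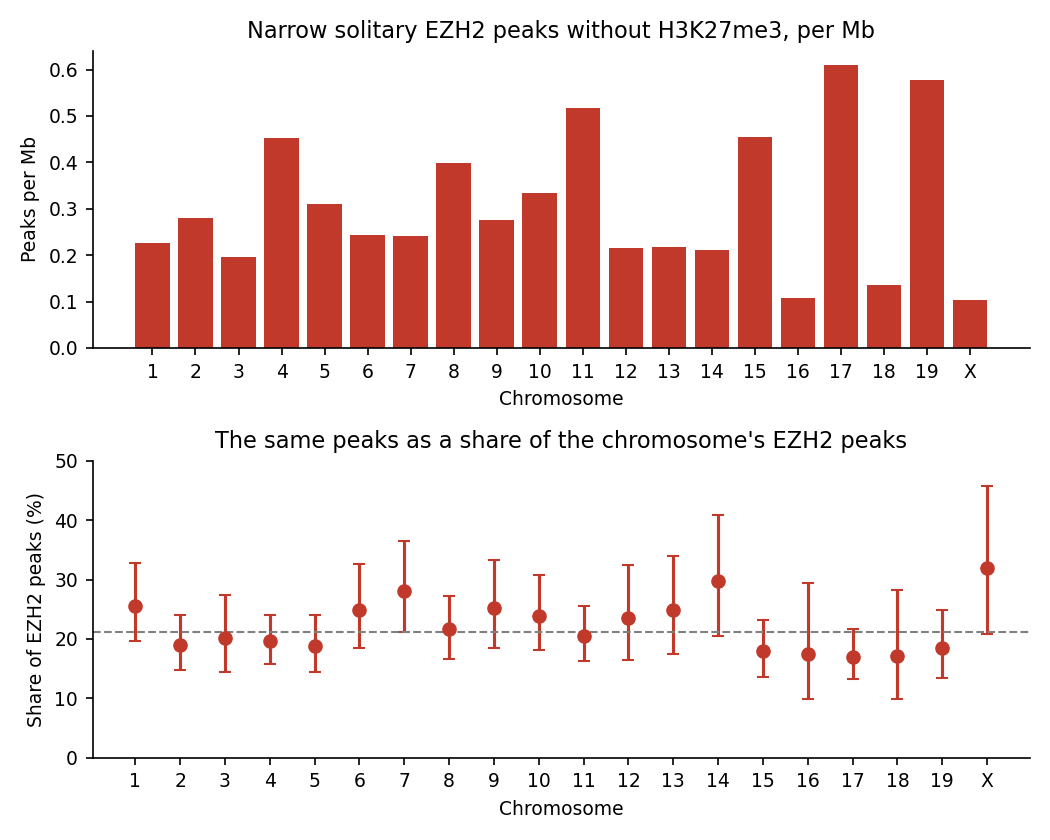
Narrow unmarked sites by chromosome (x axes): above, sites per Mb between the first and last EZH2 peak; below, sites as a percentage of the EZH2 peaks of the chromosome, with 95% Wilson intervals and the overall 21.2% as a dashed line. Density runs from 0.104 on X to 0.610 on chromosome 17, while the interval of every share crosses the dashed line.

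The spacing of the sites differed between chromosomes. On X the median gap was 1035.7 kb (229.6 to 2653.6 kb) to another EZH2 peak and 2549.8 kb (666.4 to 11329.0 kb) to H3K27me3. On chromosome 17 the medians were 18.4 kb (9.80 to 29.0 kb) and 282.6 kb (140.0 to 507.6 kb). Chromosome 15 had another EZH2 peak at 30.0 kb (16.4 to 34.4 kb) and H3K27me3 at 163.4 kb (96.8 to 366.4 kb). On chromosome 14 another EZH2 peak lay at 186.0 kb (49.2 to 324.2 kb) and H3K27me3 at 2302.3 kb, an interval that ran from 185.2 to 4898.8 kb over its 22 sites.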

How the data were processed

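The 2 deposited lists give peak starts and ends as called by the authors, with no signal or score per peak. The submitters' processing notes name Bowtie 1.0.0, the build mm9 and deepTools. How peaks were called (program, cutoffs, input, pooling) is not given in the sources used. Starts were multiples of 200 bp and ends 1 bp short of one, so 1 bp was added to each end. Positions are printed counted from 1. A gap is the number of bases between 2 peaks, and a gap of 5000 bp counted as within 5000 bp. Sites, gaps and overlaps (at least 1 bp) were computed in Python 3.11.15 (pandas 2.3.3, numpy 2.4.6), tested on simulated lists and checked with bedtools 2.31.1, which found the same sites. Intervals are 95% Wilson intervals for shares and order-statistic (binomial) intervals for medians, from scipy 1.17.1. Figures were drawn with matplotlib 3.10.9. Each sample was its own group by its title. The regions named are 5 per rule: the most isolated sites, those nearest to and farthest from H3K27me3, those nearest to a wide EZH2 peak, and the longest runs, with ties to the lower chromosome number. The sites and the distance classes were chosen with earlier results of these data known. Alternatives were other limits of width, gap and H3K27me3, other wide peaks, subsets of H3K27me3 peaks, and subsets of chromosomes. Genes and sequences were left out because the reference tables at hand are of GRCm38 and no mm9 genome was used here.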

Additional observations from a re-analysis of the deposited data

How the results depend on the processing

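The number of sites, 730 as reported, stayed within 1.5 times under all alternatives run (520 to 875, the lowest with an isolation limit of 20000 bp and the highest with a width limit of 1600 bp). Of 39 alternative values 26 stayed inside the interval reported or, for the number of sites, within 1.5 times. With an isolation limit of 10000 bp, which removes the closer sites, the median gap to another EZH2 peak was 95.4 kb, to a wide EZH2 peak 593.7 kb and to H3K27me3 443.0 kb. The share with H3K27me3 within 100 kb was then 22.4%. The share of chromosome 17 peaks was 10.7% (7.66% to 14.7%), an interval below the overall share of 630 sites among 3449 EZH2 peaks. With the width limit alone changed, to 1200 bp, the chromosome 17 share was 12.0% (8.80% to 16.2%), against 17% as reported. That limit also left fewer sites in the whole list, 555 among 3449 EZH2 peaks. The gap to a wide peak was 4407.7 kb with wide peaks of 10000 bp or more (for 708 sites, since the chromosomes of the other 22 hold none) and 178.9 kb with 2600 bp or more. Counting only H3K27me3 peaks on EZH2 sites gave 446.3 kb to H3K27me3. On chromosomes with 2 or more EZH2 peaks per Mb the gaps to EZH2 and H3K27me3 were 30.0 and 245.5 kb, and on the others 114.6 and 483.4 kb. That split, and allowing a gap of exactly 5000 bp (735 sites, no other value outside its interval), were chosen after seeing the data. No paired analysis was possible because there was a single library in each group, and leaving one out was not possible either. Depth is unknown, so sites too weak to be listed could not be assessed.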

Other observations

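In fixed windows of 1 Mb, 504 of the 1144 windows with any EZH2 peak held a narrow unmarked site, and 347 of them held exactly 1. Of the 514 windows with a single EZH2 peak, that peak was a narrow unmarked site in 145. In the whole list the sites were 730 of 3449 EZH2 peaks (21.2%) and 730 of the 2876 solitary ones. A peak alone in its window tends to be solitary, so the rule itself raises that count. Only 2 windows held 5 or more sites. One on chromosome 17 (34000001 to 35000000) held 8 among 19 EZH2 peaks, and one on chromosome 11 (117000001 to 118000000) held 6 among 15. None of the 34 EZH2 peaks of these windows met H3K27me3 of R302S cells, against 27.7% of all EZH2 peaks, 13.3% on chromosome 17 and 30.6% on chromosome 11. The 8 and 6 sites among them lacked it by the rule, so the choice of windows partly fixed this count. These windows were named after their values were seen.

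With each chromosome cut into 5 equal stretches from its first to its last EZH2 peak, the sites made up 23.3% (20% to 27%) of EZH2 peaks in the first stretch, 21.1% in each of the next 2, 18.4% (16.0% to 21.2%) in the one after and 22.3% (19.9% to 25%) in the last. The last stretch held 30.7% of the sites and 29.1% of all EZH2 peaks.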
